A study of Mus musculus with 12 samples.

Results

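The proteasome genes were all protein-coding genes of the deposited mouse table named Psma, Psmb, Psmc, Psmd or Psme followed by a number, which gave 43 of 54532 genes. The filter on low counts kept 42 of them among 15003 genes, and Psmb11 was not kept. RNA was measured by bulk sequencing in Lin-cKit+ cells, the haematopoietic stem and progenitor compartment, sorted from fresh mouse bone marrow and never cultured. The mutant cells (RH) carried 1 R878H allele of Dnmt3a, a DNA methyltransferase gene, and the wild-type cells (WT) were Dnmt3a+/+. Both were on a C57BL/6 background with Mx1-cre, a Cre recombinase under an interferon-inducible promoter. The cells came from an in vivo competition experiment in which mice received metformin (MET) or vehicle (VEH) for 1 month. The 4 groups, RH MET, RH VEH, WT MET and WT VEH, held 3 libraries each. Per the labels there were 2 animals in each treatment group, and which animal gave which library is not stated. The p-values therefore describe the spread among libraries, part of which may be technical.

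The proteasome is the barrel-shaped protease that degrades proteins tagged with ubiquitin. Its 20S core is built of alpha rings that gate the entrance and beta rings that hold the cutting sites, and the 19S cap recognises, unfolds and feeds in the substrate. In blood cells, and in most cells under interferon-gamma, the catalytic beta subunits can be exchanged for immunoproteasome subunits, which favour peptides that MHC class I molecules present. Proliferating blood progenitors rely on the proteasome for the turnover of cyclins and other short-lived regulators.

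By role the members were 7 alpha subunits (Psma1 to Psma7), 4 structural beta subunits (Psmb1 to Psmb4), 3 constitutive catalytic beta subunits (Psmb5, Psmb6 and Psmb7) and 3 immunoproteasome subunits (Psmb8, Psmb9 and Psmb10). The 19S cap gave 6 ATPases (Psmc1 to Psmc6), 11 non-ATPase subunits and 3 assembly chaperones (Psmd5, Psmd9 and Psmd10). There were 4 activators (Psme1 to Psme4) and 2 tissue-specific core subunits, Psma8 of the testis and Psmb11 of the thymus.

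Promoters are shown for the catalytic pairs Psmb5 and Psmb8, and Psmb6 and Psmb9, because constitutive subunits and their interferon-inducible counterparts are known to be under different control. The sequences are RefSeq's (GRCm38.p6), each the stretch upstream of the start site on the gene's own strand. Capitals mark matches, on either strand, to TGACNNNGC (the core of the antioxidant response element bound by NRF factors) in Psmb5 and Psmb6. In Psmb8 they mark TTCNNNGAA (the gamma-activated site of STAT factors), whose letters read the same on both strands. In the interval between Psmb9 and the divergent gene Tap1 they mark GGG and CC parted by 5 bases (the outline of an NF-kB site), where 2 of the 5 matches overlap.
Psmb5, chr14:54617996-54618245, minus strand: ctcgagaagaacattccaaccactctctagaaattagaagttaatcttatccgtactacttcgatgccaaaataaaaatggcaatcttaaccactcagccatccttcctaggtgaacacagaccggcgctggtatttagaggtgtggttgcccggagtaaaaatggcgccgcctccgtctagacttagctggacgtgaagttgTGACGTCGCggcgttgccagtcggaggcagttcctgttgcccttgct
Psmb6, chr11:70525107-70525356, plus strand: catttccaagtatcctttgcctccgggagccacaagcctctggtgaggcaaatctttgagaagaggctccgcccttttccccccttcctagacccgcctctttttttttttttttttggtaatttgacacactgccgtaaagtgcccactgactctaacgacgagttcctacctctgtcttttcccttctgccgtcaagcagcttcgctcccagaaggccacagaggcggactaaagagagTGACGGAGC
Psmb8, chr17:34197945-34198194, plus strand: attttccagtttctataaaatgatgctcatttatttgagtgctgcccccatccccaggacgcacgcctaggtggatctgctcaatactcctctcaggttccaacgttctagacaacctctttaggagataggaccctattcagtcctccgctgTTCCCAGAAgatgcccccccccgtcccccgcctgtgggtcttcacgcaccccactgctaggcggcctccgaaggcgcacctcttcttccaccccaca
Psmb9, chr17:34187331-34187555, minus strand: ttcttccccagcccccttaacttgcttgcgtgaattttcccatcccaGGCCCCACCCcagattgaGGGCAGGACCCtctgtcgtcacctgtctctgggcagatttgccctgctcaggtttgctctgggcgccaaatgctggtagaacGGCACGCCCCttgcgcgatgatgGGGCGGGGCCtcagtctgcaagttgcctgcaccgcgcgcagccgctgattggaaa

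The first matched base lay 47 bases upstream of the start in Psmb5, 9 in Psmb6 and 97 in Psmb8. Among the 36 member genes with a promoter window, TGACNNNGC was found in 5 (Psmb5, Psmb6, Psmc6, Psmd12 and Psmd9), against 10.2% of all 32851 windows. TTCNNNGAA was found in 1 of the 36, Psmb8, against 7.02% of windows. The interferon-stimulated repeat (GAAA, 2 bases, GAAA) was found in 3, Psmb3, Psmd4 and Psmd9, against 2.98%, and not in Psmb8 or Psmb9. The NF-kB outline was found in 20 of the 36 member genes, against 45.8% of windows. Psmb6 was among the 20, with that outline left unmarked above. The motif to mark was chosen beforehand for each gene, so the marks do not compare the genes. For Psmb5, Psmb8 and Psmb9 the deposited gene span begins further upstream than RefSeq's start, so these windows lie partly or wholly inside it. These matches are letters in a window and were not tied to binding.

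Total counts per library ran from 13359583 to 21938003, and 0.445% to 0.793% of them fell in the members. The mitochondrial genome took 40.8% of counts in RH VEH 2 and 33.3% in WT MET 2, against 1.57% to 4.32% in the other 10 libraries. As a share of counts outside the mitochondrial genome, the members took between 0.627% (WT VEH 3) and 0.806% (WT VEH 1), so the ends of the range lay in the same group. The receptor gene Kit, which the sort selects, stood at 118 to 199.9 CPM in the 12 libraries. The labels name no batch. The 6 libraries also found in a smaller deposited table are called round 1 (RH MET 1 and 2, RH VEH 1, WT MET 1, WT VEH 1 and 2) and the others round 2. Levels of the members in bulk RNA are means over the cells of a library, so fewer cells of a type and less RNA per cell cannot be told apart.

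All members but the tissue-specific Psmb11 had counts in every library, and those of the immunoproteasome were lower than most. On a scale of CPM per kilobase of the deposited gene length, the structural beta subunit gene Psmb4 had the highest mean level over 12 libraries, 142 ± 33.8 (SD, n = 12), and the ATPase gene Psmc5, the alpha subunit gene Psma6 and the catalytic subunit gene Psmb5 followed at 123, 117 and 115. Their ranges over the 12 libraries overlapped, so the order among them is not set beyond the spread. The lowest members expressed in all libraries were Psme4, which encodes the nuclear activator PA200, at 12.04, and Psma8 at 3.44. The median of the member means per kilobase was 84.9 for structural beta subunits, 81.6 for ATPases, 66.7 for alpha subunits, 65.2 for constitutive catalytic subunits, 53.6 for non-ATPase subunits and 49.2 for activators. It was 19.4 for immunoproteasome subunits and 18.6 for chaperones.

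The catalytic pairs differed in how far the immunoproteasome partner was below the constitutive one. The product of Psmb8 (19.4 CPM per kilobase) replaces the chymotrypsin-like subunit encoded by Psmb5 (115), and that of Psmb9 (15.0) the caspase-like subunit encoded by Psmb6 (65.2). Psmb10, whose product replaces the trypsin-like Psmb7 subunit, stood at 32.5 CPM per kilobase, close to Psmb7 at 28.9. That closeness depended on the length used, since the deposited length of Psmb7 is 3421 bases, of which 831 are coding. Per kilobase of coding sequence, the immunoproteasome subunits stood at 64.1 (Psmb8), 83.8 (Psmb9) and 67.7 (Psmb10), against 131 (Psmb5), 171 (Psmb6) and 119 (Psmb7). On this scale the nuclear activator gene Psme3 was the highest member at 391, ahead of Psmb4 at 350.3 and Psmb1 at 305.

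**Figure D1:**
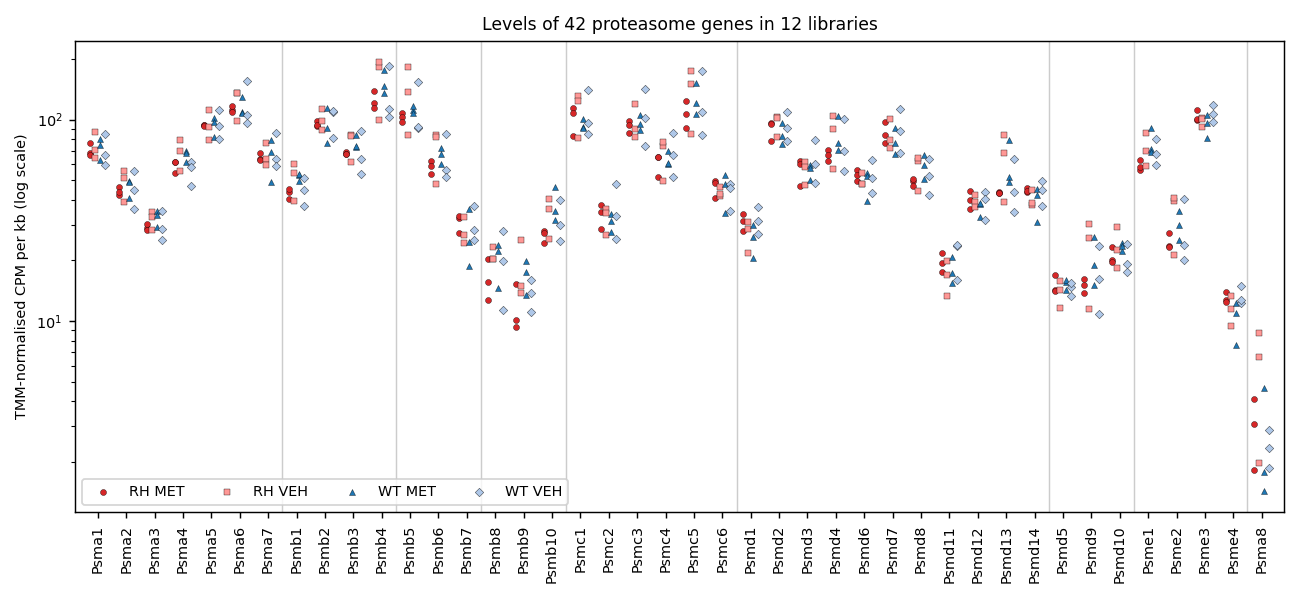
TMM-normalised CPM per kilobase (log axis) of the 42 members kept by the filter, with 1 point per library and the 4 groups side by side within each gene. Vertical lines part the roles. The points of the 4 groups interleave for most genes, and Psmb8, Psmb9, Psmd5, Psmd9, Psmd11, Psme4 and Psma8 lie near the bottom.

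Psmb11, the thymus-specific beta subunit gene, had 2, 2 and 0 counts in RH MET, 1 count in WT VEH 3 and 0 counts in every other library. Psma8, the alpha subunit gene of testis proteasomes, had 24 to 299 counts per library. Among near copies, Psme2b stood at 19.5 to 38.7 CPM, close to Psme2, with which it may share reads, so Psme2 is uncertain. The annotated pseudogenes Psmb5-ps, Psmb6-ps, Psmb6-ps2 and Psmb7-ps2 stood at 0 to 0.198 CPM. Exons of 12 of the 43 members overlap another gene, 11 of them a gene of the other strand. The overlap was 1849 bases for Psmd9 (with Gm26745), 553 for Psmd1 (with Gm21972 and Htr2b), 498 for Psmb8 (with Gm20496) and 405 for Psmb7 (with Nek6). It was 342 for Psmd13 (with Sirt3), 215 for Psmc3 (with Slc39a13) and 212 for Psmb9 (with Tap1). Mir686 overlaps the pair member Psmb5 by 109 bases. Gm21972 lies on the same strand as Psmd1 and Mir686 on that of Psmb5, so a strand setting would not part their reads. Without a stated strand setting, reads in these stretches cannot be told apart.

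For most members the libraries of a group differed from each other by more than the groups did in the fit. The fitted log2 fold change, adjusted for round, was compared in size with the pooled SD of log2 CPM within groups, which was not. It was the smaller in 35 of 42 members for RH VEH against WT VEH and 30 for RH MET against WT MET. The same held in 26 for RH MET against RH VEH and 34 for WT MET against WT VEH. The highest library exceeded the lowest by a median of 1.70-fold over the 42 members, against 2.10-fold over all 15003 genes. The median SD of log2 CPM over the 12 libraries was 0.229 for members and 0.321 for all genes. Psma8 varied most, at 6.04-fold, followed by Psmd9 (2.79-fold), Psmb9 (2.68-fold), Psmb8 (2.45-fold) and Psmd13 (2.41-fold), and Psmd12, a lid subunit gene, varied least at 1.38-fold. Many subunits moved together between libraries. WT VEH 1 was the highest library for 16 of the 42 members and WT VEH 3 the lowest for 17, although both are vehicle-treated wild type; they were the highest and lowest library for 9.64% and 10.7% of all genes. Relative to each gene's mean, the median member stood at −0.00, −0.06 and −0.09 in the RH MET libraries and at 0.22, 0.10 and −0.22 in the RH VEH libraries (log2). It stood at 0.06, −0.05 and 0.03 in WT MET and at 0.29, −0.06 and −0.27 in WT VEH. By this median over all members, the RH MET and WT MET libraries lay within the range that each vehicle group spans alone. For the immunoproteasome subunits the median ran from −0.07 to 0.34 in RH VEH and from −0.39 to 0.14 in WT VEH. It lay outside both ranges in RH MET 1 (−0.55) and WT MET 2 (0.45), and within both in RH MET 3 (0.08).

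**Figure D2:**
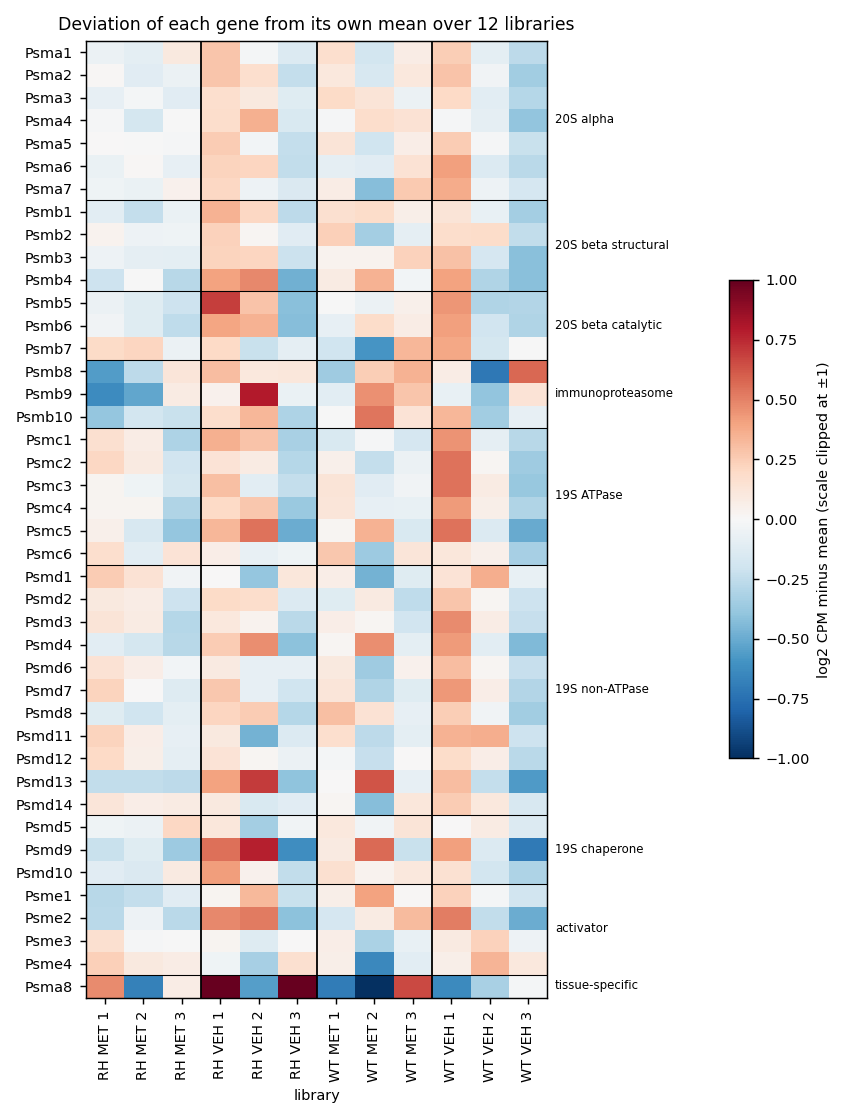
Deviation of each of the 42 members (rows, ordered by role) from its own mean over 12 libraries, as log2 CPM, with colour clipped at ±1. The columns WT VEH 1 and RH VEH 1 are mostly red, and WT VEH 3 and RH VEH 3 mostly blue. Rows that depart from this include Psmb8, Psmb9, Psme3, Psme4, Psmd1 and Psma8, while Psmb10, Psme1 and Psme2 follow it in sign.

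The comparison of RH MET with WT MET asks how the genotypes differ under the drug. It gave lower levels of most members in the mutant, all of them small, and 0 of 42 members were called by edgeR's quasi-likelihood test with Benjamini-Hochberg adjustment (lowest adjusted p = 0.738), beside 0.00667% of all genes. DESeq2 called 0 members as well, and 1 member (Psmb10) had an unadjusted p under 0.05, against 5.78% of all genes. In all, 31 members were lower and 11 higher, with a median log2 fold change of −0.12, against −0.02 for all genes. In 7 members every RH MET library was below every WT MET library (Psmb10, Psme1, Psmb1, Psmd8, Psmd13, Psmd4 and Psmb3). That is 16.7% of members, beside 8.94% of all genes; in 1 member, Psme4 (2.38%), every RH MET library was above, beside 7.97%. By role, the median was −0.41 for the 3 immunoproteasome subunits, −0.28 for structural beta, −0.24 for catalytic beta, −0.10 for alpha and ATPase subunits and 0.01 for non-ATPase subunits.

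Psmb10, the trypsin-like immunoproteasome subunit gene, had the smallest p of the members in this comparison. It stood at 41.6, 47.9 and 46.6 CPM in RH MET, 61.5, 68.6 and 43.8 in RH VEH, 54.3, 78.8 and 59.8 in WT MET and 68.4, 42.8 and 51.4 in WT VEH. All 3 RH MET libraries were below the WT MET libraries, while 1 RH VEH and 1 WT VEH library lay within the RH MET range. The log2 fold change of RH MET against WT MET was −0.49 ± 0.221 (SE, n = 3 per group; 95% interval −0.97 to −0.01; edgeR adjusted p = 0.738). WT MET 2, rich in mitochondrial RNA, held the highest value; without it and RH VEH 2 the fold change was −0.34 ± 0.190. Within round 1 it was −0.28 ± 0.267 and within round 2 −0.55 ± 0.369.

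Psmb9, the immunoproteasome subunit gene paired with Psmb6, was low in 2 of the 3 RH MET libraries. Its levels were 34.4, 37.0 and 56.1 CPM in RH MET, 54.6, 92.0 and 50.6 in RH VEH, 49.4, 72.7 and 64.5 in WT MET and 50.4, 40.4 and 58.4 in WT VEH. RH MET 1 and 2, both of round 1, lay below all other libraries, and RH MET 3 lay among them. The same 2 libraries had the lowest summed levels of T and NK cell markers, at 49.4 and 59.9 CPM against 70.4 or more elsewhere, and of dendritic cell markers, at 221 and 196 CPM against 229 or more. The part of these cells in the Psmb9 level was not tested. The log2 fold change was −0.49 ± 0.197 for RH MET against RH VEH (unadjusted p = 0.0272, edgeR adjusted p = 0.932) and −0.41 ± 0.197 for RH MET against WT MET. Without the 2 libraries rich in mitochondrial RNA these were −0.30 ± 0.165 and −0.37 ± 0.165.

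Psmb8, the chymotrypsin-like immunoproteasome subunit gene, did not separate any groups. It stood at 35.0, 42.8 and 55.8 CPM in RH MET, 63.7, 55.4 and 55.6 in RH VEH, 40.1, 61.0 and 65.5 in WT MET and 54.2, 31.2 and 76.5 in WT VEH. The WT VEH libraries alone spanned the whole range of the 12. The fold change of RH MET against RH VEH was −0.29 ± 0.235, with −0.71 ± 0.296 in round 1 and 0.03 ± 0.290 in round 2.

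The constitutive partners showed no separation of groups either. Psmb5 stood at 97.0, 92.6 and 87.2 CPM in RH MET, 163, 123 and 75.6 in RH VEH, 101, 96.7 and 105 in WT MET and 137, 81.7 and 82.2 in WT VEH. Psmb6 stood at 117, 110.3 and 100.3 CPM in RH MET, 158, 153 and 89.3 in RH VEH, 113, 136 and 126 in WT MET and 159, 105 and 97.0 in WT VEH. Both genes had a high and a low library in each vehicle group and narrower ranges under metformin. Psmb7 stood at 111, 113 and 93.4 CPM in RH MET, 112, 83.5 and 91.3 in RH VEH, 84.7, 64.5 and 123 in WT MET and 127, 86.0 and 97.2 in WT VEH. Unlike Psmb5 and Psmb6, it was low in the 2 libraries rich in mitochondrial RNA. For RH MET against RH VEH the log2 fold changes were −0.46 ± 0.227 (Psmb5), −0.35 ± 0.217 (Psmb6) and 0.10 ± 0.221 (Psmb7).

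The ratio of each immunoproteasome gene to its partner within a library does not depend on how libraries are scaled, and for Psmb9 it parted the rounds and not the conditions. The log2 ratio of Psmb9 to Psmb6, on levels per kilobase, averaged −2.36 ± 0.491 (SD, n = 3) in RH MET, −1.99 ± 0.438 in RH VEH, −1.99 ± 0.153 in WT MET and −2.22 ± 0.475 in WT VEH. It ran from −2.73 to −2.16 in the 6 libraries of round 1 and from −1.94 to −1.70 in the 6 of round 2. For Psmb8 to Psmb5 the group means were −2.68 in RH MET, −2.59 in RH VEH, −2.50 in WT MET and −2.55 in WT VEH, all with overlapping ranges. That ratio ran from −3.08 to −2.72 in round 1 and from −2.75 to −1.71 in round 2. For Psmb10 to Psmb7 the means were −0.21 in RH MET, 0.27 in RH VEH, 0.54 in WT MET and 0.06 in WT VEH. Its highest values were 1.29 in WT MET 2 and 0.72 in RH VEH 2, the libraries rich in mitochondrial RNA.

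**Figure D3:**
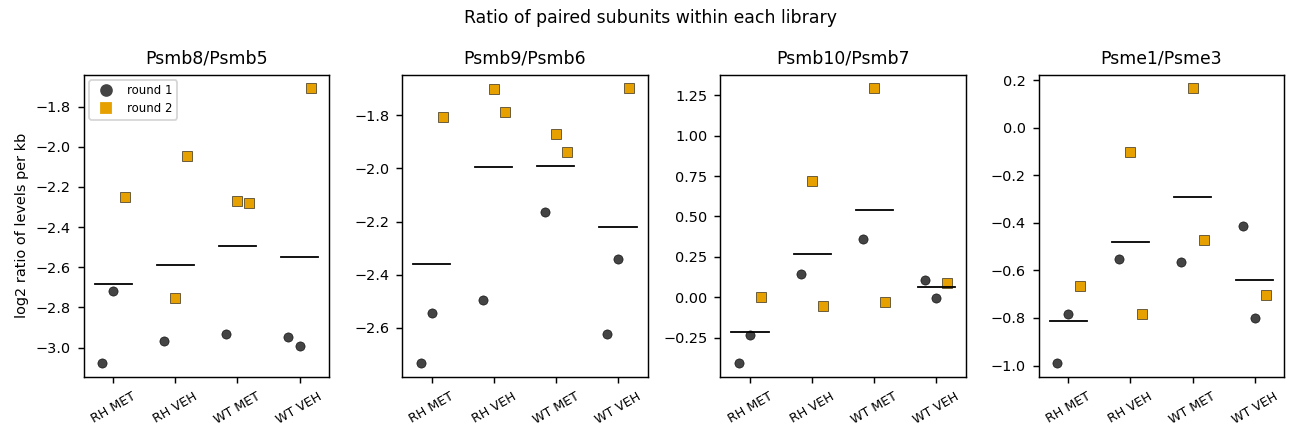
Log2 ratio of levels per kilobase for 4 subunit pairs in each of 12 libraries (round 1 circles, round 2 squares), with a line at each group mean. For Psmb9 to Psmb6 all squares lie above all circles; for Psme1 to Psme3 the 3 RH MET points lie below the 3 WT MET points.

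Of 4 pair ratios in 4 comparisons between groups, only that of the activators Psme1 and Psme3 in RH MET against WT MET had no overlap. Psme1, a subunit gene of the interferon-inducible cytosolic activator PA28, stood at 125, 128 and 139.6 CPM in RH MET, 154, 189.8 and 129 in RH VEH, 158, 200.3 and 152 in WT MET and 178, 149 and 132 in WT VEH. Psme2, which encodes the other subunit of that ring, stood at 41.6, 48.4 and 41.4 CPM in RH MET, 70.0, 71.8 and 37.7 in RH VEH, 44.4, 52.8 and 62.2 in WT MET and 71.3, 42.2 and 35.4 in WT VEH. For Psme1 the RH MET libraries lay below all WT MET libraries, and for Psme2 the groups overlapped. For RH MET against WT MET the log2 fold change was −0.37 ± 0.174 for Psme1 (edgeR adjusted p = 0.738) and −0.36 ± 0.287 for Psme2.

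The nuclear activators leaned the other way. Psme3, the PA28 gamma gene, stood at 331, 294 and 296 CPM in RH MET, 302, 272 and 297 in RH VEH, 311, 238 and 282 in WT MET and 316, 348 and 287 in WT VEH. Psme4 stood at 118, 106 and 105 CPM in RH MET, 96.6, 79.1 and 111 in RH VEH, 103, 63.7 and 92.2 in WT MET and 103, 126 and 107 in WT VEH. WT MET 2 was the lowest library for both genes. The fold change of RH MET against WT MET was 0.10 ± 0.121 for Psme3 and 0.29 ± 0.176 for Psme4, and 0.16 ± 0.139 for Psme4 without the 2 libraries rich in mitochondrial RNA. The log2 ratio of Psme1 to Psme3 was −0.99, −0.78 and −0.67 in RH MET and −0.56, 0.17 and −0.47 in WT MET, with means of −0.81 ± 0.164 (SD, n = 3) and −0.29 ± 0.398. The difference of means was −0.52, and −0.30 without WT MET 2, which held the highest ratio; these groups then still did not overlap. Leaving libraries out of the ratios was chosen after seeing the data. The ratio overlapped in the other 3 comparisons between groups. It was not adjusted for round, and averaged −0.68 ± 0.211 (SD, n = 6) in round 1 and −0.43 ± 0.379 in round 2. RH MET 1, RH MET 2 and WT MET 1 were of round 1, and RH MET 3, WT MET 2 and WT MET 3 of round 2. The part of the rounds in the difference was not tested. Among single genes, 8.94% had every RH MET library below every WT MET library.

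The comparison of RH MET with RH VEH gives the effect of the drug in the mutant, and its members were mostly lower, with ranges that all overlapped. By edgeR's quasi-likelihood test 0 of 42 members were called (lowest adjusted p = 0.932), as were 0% of all genes, and by DESeq2 0 members. In all, 33 members were lower and 9 higher, with a median log2 fold change of −0.18, against −0.01 for all genes. Psmb9 alone had an unadjusted p under 0.05, against 2.43% of all genes. No member had groups that did not overlap, against 2.81% of genes lower and 4.11% higher. By role the medians were −0.35 (catalytic beta), −0.34 (immunoproteasome), −0.26 (structural beta), −0.21 (ATPases), −0.17 (alpha) and −0.09 (non-ATPase). The median of all members was −0.26 in round 1 and −0.07 in round 2. In the same comparison all 11 markers of T and NK cells were lower in RH MET (median −1.25; 7 with an unadjusted p under 0.05, 0 called by edgeR), and all 11 granulocyte markers were higher (median 1.12, 0 called). Of 6 erythroid markers 5 were lower (median −0.27), all 5 tested megakaryocyte markers were lower (−0.33) and all 6 monocyte markers higher (0.33). The part of these cells in the medians was not tested.

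Without drug, RH VEH against WT VEH, most members were slightly higher in the mutant. In all, 33 members were higher and 9 lower, with a median log2 fold change of 0.11, against 0.00 for all genes. By edgeR 0 members were called (lowest adjusted p = 0.977) beside 0% of all genes, by DESeq2 0, and 1 member had an unadjusted p under 0.05 (2.03% of all genes). No member had groups that did not overlap, against 2.71% of genes higher and 3.23% lower. Without WT VEH 3 the median was 0.01, and without WT VEH 1 it was 0.23.

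Psma8 was the member with the unadjusted p under 0.05. It stood at 6.94, 3.07 and 5.23 CPM in RH MET, 11.2, 3.35 and 14.7 in RH VEH, 3.01, 2.43 and 7.89 in WT MET and 3.15, 3.95 and 4.89 in WT VEH. RH VEH 1 and 3 were the highest of the 12 libraries, and RH VEH 2, rich in mitochondrial RNA, lay within the WT VEH range. The log2 fold change of RH VEH against WT VEH was 1.25 ± 0.552 (95% interval 0.05 to 2.46; edgeR adjusted p = 0.977). Without RH VEH 2 and WT MET 2 it was 1.61 ± 0.343 (adjusted p = 0.999). With no filter on low counts Psma8 was called, at 1.25 ± 0.348 and an edgeR adjusted p of 0.0498. That fit called 175 of 27530 genes in this comparison.

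In wild-type cells, WT MET against WT VEH, 27 members were higher and 15 lower, with a median of 0.09, against 0.01 for all genes. By edgeR 0 members were called (lowest adjusted p = 0.876), as were 0% of all genes, by DESeq2 0, and 0 had an unadjusted p under 0.05 (4.03% of all genes). Groups overlapped in all members, while 4.98% of genes were higher and 4.4% lower with no overlap. The direction rested on single libraries: the median was −0.03 without WT VEH 3, −0.11 in round 1 alone and 0.20 in round 2 alone.

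**Figure D4:**
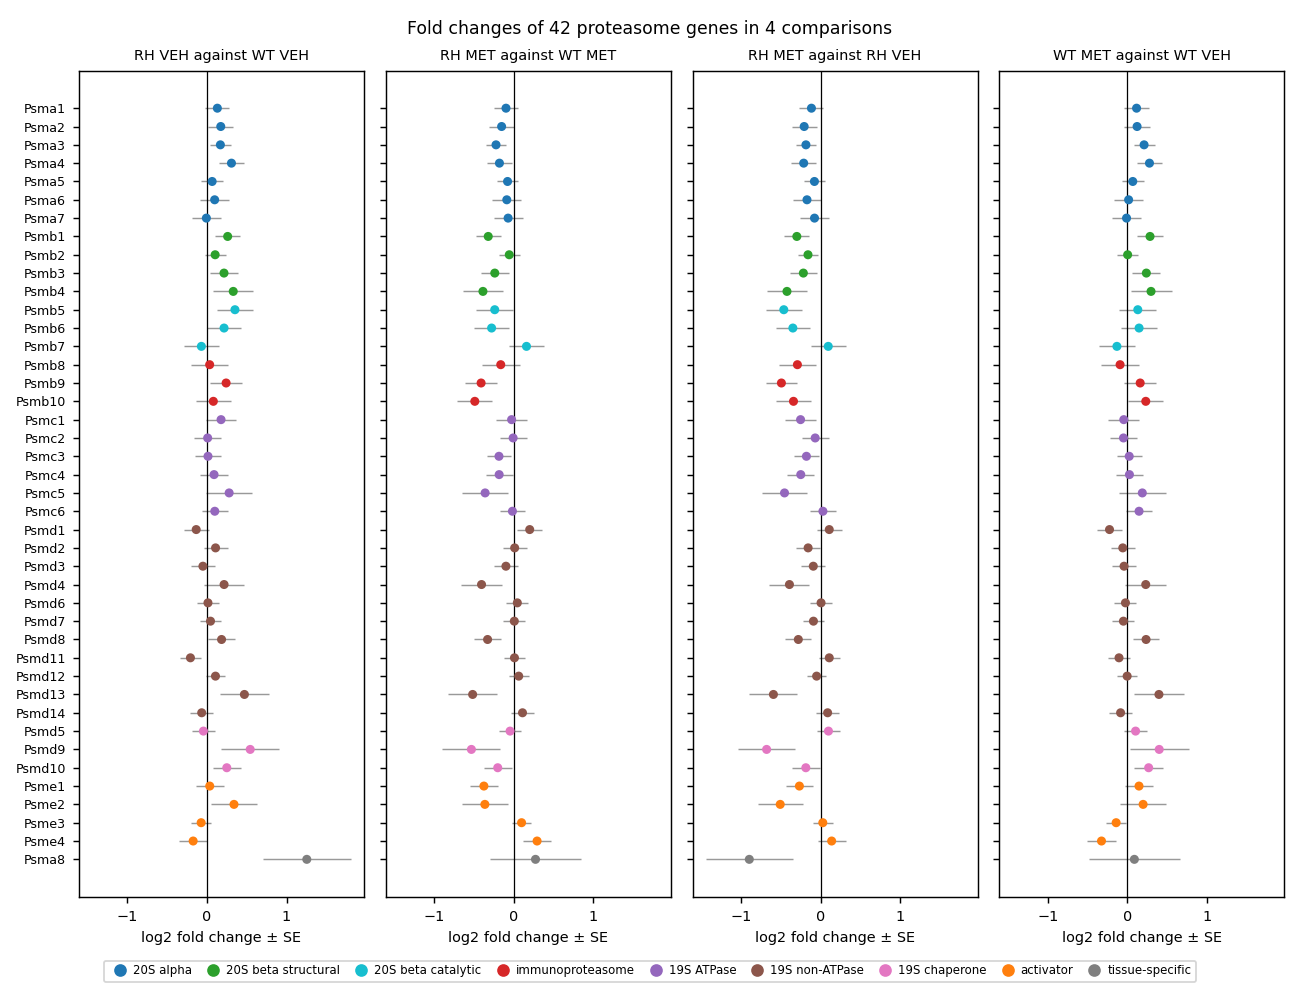
Log2 fold change ± SE of each of the 42 members in 4 comparisons between groups, coloured by role. Points lean left in both RH MET panels and right in the RH VEH against WT VEH panel, and most SE bars are as long as the shift; Psma8 has the widest bars.

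The difference between the metformin effects, RH minus WT, was negative for 35 of 42 members, with a median of −0.22, against −0.02 for all genes. By edgeR 0 members were called (lowest adjusted p = 0.648), as were 0% of all genes, by DESeq2 0, and 2 members had an unadjusted p under 0.05, against 6.21% of all genes. These were Psmb1 and Psmb9. The structural beta subunit gene Psmb1 stood at 202, 185 and 208 CPM in RH MET, 277, 251 and 182 in RH VEH, 243, 246 and 227 in WT MET and 237, 206 and 171 in WT VEH. Its RH MET libraries lay below the WT MET ones, and the vehicle groups overlapped. The difference of effects was −0.58 ± 0.228 for Psmb1 (edgeR adjusted p = 0.648), −0.46 ± 0.218 without the 2 libraries rich in mitochondrial RNA, −0.64 ± 0.255 in round 1 and −0.46 ± 0.422 in round 2. For Psmb9 it was −0.65 ± 0.286, and −0.42 ± 0.235 without those libraries.

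Averaged over treatments, RH against WT gave 21 members higher and 21 lower (median −0.00). That balance moved with the libraries used, to 35 higher and 7 lower in round 2 alone (median 0.07) and to 11 higher and 31 lower without WT MET 2 and RH VEH 2 (median −0.03). Averaged over genotypes, MET against VEH gave 8 higher and 34 lower (median −0.06; 0.10 in round 2 alone). Neither gave a called member by edgeR or DESeq2 (0 of 42 each; 0.00667% and 0% of all genes by edgeR). In either, 0 members had an unadjusted p under 0.05, beside 2.65% of all genes for RH against WT and 1.63% for MET against VEH. No member parted all libraries of RH from those of WT (0.02% of genes higher, 0.0733% lower) or of MET from those of VEH (0.0667% higher, 0.00667% lower). The comparisons share libraries, so their leanings are not independent.

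Other members of the smallest p in a comparison, none of them called, are given next by role. The alpha subunit gene Psma4 stood at 146, 129 and 146 CPM in RH MET, 165, 187 and 132 in RH VEH, 145, 166 and 162 in WT MET and 145, 138 and 111 in WT VEH. The alpha subunit gene Psma3 stood at 113, 118 and 111 CPM in RH MET, 135, 128 and 110.0 in RH VEH, 137, 131 and 115 in WT MET and 138, 111 and 98.0 in WT VEH. In both genes the lowest library was WT VEH 3, and the ranges of all groups overlapped. For RH VEH against WT VEH the log2 fold change was 0.31 ± 0.158 for Psma4 and 0.17 ± 0.132 for Psma3, and that of WT MET against WT VEH 0.28 ± 0.159 and 0.21 ± 0.132.

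Among the cap subunits, the ATPase gene Psmc1 stood at 220.2, 208 and 159.5 CPM in RH MET, 253, 241 and 158 in RH VEH, 178, 196 and 176 in WT MET and 270.0, 185 and 163 in WT VEH. The ATPase gene Psmc6 stood at 174, 143 and 169.7 CPM in RH MET, 161, 146 and 149.6 in RH VEH, 186, 120.0 and 168 in WT MET and 167, 159.8 and 122 in WT VEH. Neither gene separated any groups. Psmd1, which encodes the large scaffold subunit RPN2, stood at 248, 229 and 202 CPM in RH MET, 208, 159 and 224 in RH VEH, 218, 149.7 and 191 in WT MET and 228, 267 and 198 in WT VEH. The lid subunit gene Psmd11 stood at 139, 124 and 112 CPM in RH MET, 127, 85.3 and 108 in RH VEH, 133, 98.7 and 111 in WT MET and 150.4, 153 and 102 in WT VEH. Both were lowest in RH VEH 2 or WT MET 2. The lid subunit gene Psmd12 stood at 117, 106 and 95.6 CPM in RH MET, 112, 103 and 97.7 in RH VEH, 100.4, 86.7 and 102 in WT MET and 116, 107 and 84.6 in WT VEH, the narrowest range of any member.

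Of the chaperones, Psmd5 stood at 103, 102 and 122 CPM in RH MET, 114, 83.6 and 103 in RH VEH, 114, 103 and 116 in WT MET and 106, 112 and 96.3 in WT VEH. Psmd10, which encodes gankyrin, stood at 29.6, 29.0 and 34.2 CPM in RH MET, 42.9, 33.0 and 27.0 in RH VEH, 35.9, 32.8 and 34.5 in WT MET and 35.5, 28.2 and 25.8 in WT VEH. All 4 groups overlapped in both genes. Psmd9, a chaperone gene of the ATPase ring, varied far more, at 109.7, 118 and 99.9 CPM in RH MET, 188, 219.6 and 83.4 in RH VEH, 137, 190.4 and 109.7 in WT MET and 170.3, 117 and 78.7 in WT VEH. Psmd13, a lid subunit gene, followed the same libraries at 147, 147 and 145 CPM in RH MET, 231, 283 and 132 in RH VEH, 174, 269 and 165 in WT MET and 216, 147 and 117 in WT VEH.

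In Psmd9 and Psmd13 the 2 libraries rich in mitochondrial RNA, together with RH VEH 1 and WT VEH 1, stood above the rest. The RH MET libraries lay in a narrow band toward the low end. The log2 fold change of RH MET against RH VEH was −0.68 ± 0.358 for Psmd9 and −0.59 ± 0.301 for Psmd13, and −0.32 ± 0.214 and −0.33 ± 0.194 without RH VEH 2 and WT MET 2. With no filter on low counts, edgeR called Psmd9 in that comparison (−0.64 ± 0.176, adjusted p = 0.0378). It then also called the difference of metformin effects for Psmd9 (−0.98 ± 0.262, adjusted p = 0.0176) and Psmd13 (−0.89 ± 0.261, adjusted p = 0.0433). Of all 27530 genes in that fit, 229 were called for RH MET against RH VEH and 431 for the difference.

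The 2 libraries rich in mitochondrial RNA, of different genotype and treatment, shared a pattern across subunits. Against the mean of the other 4 libraries of round 2, Psmd9 was higher by 1.25 in RH VEH 2 and 1.05 in WT MET 2 on the log2 scale, Psmd13 by 1.03 and 0.96, and Psmc5 by 0.93 and 0.73. Psmd4, which encodes the ubiquitin receptor RPN10, was higher by 0.77 in both, and Psmb4 by 0.78 and 0.65. In the other direction stood Psma8 at −1.12 and −1.56, Psme4 at −0.39 and −0.70, Psmb7 at −0.27 and −0.64 and Psmd1 at −0.36 and −0.44. Some of the highs were not particular to these libraries, since RH VEH 1 and WT VEH 1 of round 1 came near them. Psmb4 stood at 376 and 344 CPM in RH VEH 2 and WT MET 2, and at 357 and 358 in RH VEH 1 and WT VEH 1. In the same order Psmc5 stood at 243, 212, 210 and 243 CPM, and Psmd4 at 293, 293, 253 and 284. Across the 42 members the differences in RH VEH 2 and in WT MET 2 had a Spearman rho of 0.907, against 0.546 across all 15003 genes. Both differences are taken from the same 4 libraries, which alone makes them alike, and genes are not independent replicates. With the GC content of the longest transcript the rho over members was 0.52 in RH VEH 2 and 0.54 in WT MET 2, against 0.119 and 0.149 over all genes. With gene length it was −0.287 and −0.146, against −0.167 and −0.118. Marker sums also moved with these libraries. Megakaryocyte markers summed to 1434 CPM in RH VEH 2 and 1795 in WT MET 2, against 500.4 to 939.9 in the other 10 libraries. Granulocyte markers summed to 1496 and 1414 CPM, against 3334 to 7161. The part of these cells, of RNA quality or of base composition in this pattern was not tested.

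**Figure D5:**
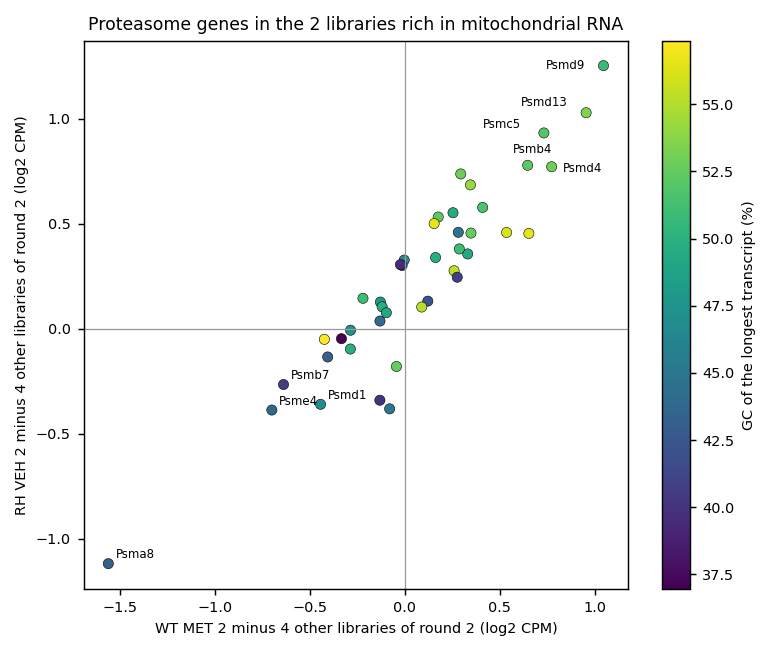
Log2 CPM of each member in WT MET 2 (horizontal) and in RH VEH 2 (vertical) minus its mean in the 4 other libraries of round 2, coloured by the GC content of the longest transcript. Psmd9 lies at the top right (1.05 and 1.25) and Psma8 at the bottom left (−1.56 and −1.12), with the other members along a band between them.

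Genes that work with the proteasome were read from 4 lists. Of 17 tested genes for its assembly and control, 5 were higher and 12 lower in RH MET than in WT MET (median −0.13), and 13 higher and 4 lower in RH VEH than in WT VEH (0.09), close to the members. Pomp, the maturation factor of the 20S core, had 107, 111 and 102 CPM in RH MET, 178, 214 and 87.8 in RH VEH, 131, 205 and 117 in WT MET and 179, 101 and 84.5 in WT VEH, with the same high libraries as Psmd9. The assembly chaperone gene Psmg3 had 16.6, 15.7 and 15.1 CPM in RH MET, 29.6, 38.1 and 13.2 in RH VEH, 22.7, 34.5 and 21.2 in WT MET and 23.2, 11.6 and 12.8 in WT VEH. No gene of the 4 lists was called by edgeR in any of the 7 comparisons.

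Ubb, a gene that encodes ubiquitin, was lower in RH MET than in WT MET. It stood at 675, 663 and 679.8 CPM in RH MET, 894, 792 and 732 in RH VEH, 993, 810.4 and 893 in WT MET and 822, 833 and 729 in WT VEH. Every RH MET library was below every library of the other groups. Of all genes, 8.94% had every RH MET library below every WT MET library, and 2.81% below every RH VEH library. The share below all other groups at once was not counted. Between RH MET and WT MET the log2 fold change was −0.46 ± 0.118 (unadjusted p = 0.00191, edgeR adjusted p = 0.738). Of the 19 tested genes of the ubiquitin and shuttle list, 10 were higher and 9 lower (median 0.05), so the list as a whole did not lean.

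Of 14 tested peptide loading genes, 10 were lower and 4 higher in RH MET than in WT MET (median −0.20), and of 24 interferon control genes 15 were lower and 9 higher (median −0.07). H2-K1, an MHC class I gene, stood at 682, 736 and 814 CPM in RH MET, 867, 1132 and 810.5 in RH VEH, 932, 1237 and 951 in WT MET and 939.5, 883 and 964 in WT VEH. Irf1, a transcription factor gene that drives immunoproteasome expression under interferon-gamma, stood at 39.3, 33.1 and 31.4 CPM in RH MET, 37.8, 50.5 and 43.5 in RH VEH, 63.9, 54.9 and 39.6 in WT MET and 76.3, 70.6 and 52.9 in WT VEH. All RH MET libraries were below all WT libraries in Irf1 and in H2-K1. Against WT MET alone, 8.94% of all genes were lower in RH MET with no overlap. Irf1 was also lower in every RH VEH library than in every WT VEH library, beside 3.23% of all genes. In that comparison all 3 immunoproteasome genes were higher (median 0.08). For RH MET against WT MET the log2 fold change was −0.67 ± 0.192 for Irf1 and −0.43 ± 0.153 for H2-K1 (edgeR adjusted p = 0.738 for both). For Irf1 in RH against WT over both treatments it was −0.59 ± 0.132 (edgeR adjusted p = 0.677).

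Ifng, the interferon-gamma gene that T and NK cells express, stood at 0.545, 0.755 and 1.25 CPM in RH MET, 3.03, 1.19 and 2.85 in RH VEH, 3.36, 3.25 and 4.08 in WT MET and 3.04, 2.24 and 2.13 in WT VEH, at log2 fold change −2.04 ± 0.437 for RH MET against WT MET. Markers of T and NK cells, which the sort should leave out, moved the same way. The summed level of 11 of 11 such genes was 49.4 to 99.2 CPM in RH MET, 82.1 to 114 in RH VEH, 93.2 to 122 in WT MET and 70.4 to 105 in WT VEH. All 11 were lower in RH MET than in WT MET (median −1.14; 7 with an unadjusted p under 0.05, 0 called). Granulocyte markers leaned the other way, 11 of 11 higher in RH MET than in WT MET (median 0.97, 0 called). Their sums were 4334 to 6739.9 CPM in RH MET, 1496 to 4799 in RH VEH, 1414 to 5522 in WT MET and 3334 to 7161 in WT VEH, and the low ends of RH VEH and WT MET were the 2 libraries rich in mitochondrial RNA. All 6 erythroid markers (median −0.26) and all 5 tested megakaryocyte markers (median −0.70) were lower in RH MET than in WT MET. Of 6 monocyte markers 5 were higher (median 0.41), and 0 of these markers were called. Erythroid markers summed to 4041 to 6070.5 CPM in RH MET, 4821 to 6603 in RH VEH, 6096 to 8267 in WT MET and 4719 to 8020 in WT VEH. The part of all these cells in the levels of proteasome, MHC and interferon genes was not tested.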

How the data were processed

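The authors deposited raw counts per gene, not normalized, in a table of 54532 mouse gene IDs and 12 libraries. The submitters' processing notes name STAR 2.5, HTSeq 0.6.1 and mm10 with no settings. How strand and reads mapping to several places were handled: not given in the sources used here. A smaller deposited table held 6 of the same columns with equal counts; 2 more columns of it match no sample and were not used here. Columns found in both tables are called round 1 and the others round 2. The labels name no batch. Library numbers are those of the table's columns, which for some libraries are not the labels' numbers.

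Counts were fitted with edgeR 4.0.16 (robust quasi-likelihood, TMM, filterByExpr) in R 4.3.3, with a mean per group and a round term over 12 libraries. p-values were adjusted by Benjamini-Hochberg over all 15003 genes kept, and a gene was called under 0.05. Levels are TMM-normalised CPM (counts scaled by library size). Alternatives were DESeq2 1.42.0 and 9 other settings beside leaving out each library. The fit was tested on simulated counts with changes in RH VEH. For RH VEH against WT VEH it recovered 35.4% of 99 changes of 1 log2 unit and 94.9% of 99 changes of 2. It made 5 false calls among 14721 genes. Smaller changes were not simulated.

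The members and lists were chosen with earlier results of these data known. Members given in every library were the catalytic pairs, the activators, the highest and lowest by level, and those of the smallest p per comparison and direction. Psmd9, Psmd4, Psmc5, Psmb4 and Pomp were added after their values were seen. Promoters came from RefSeq (GRCm38.p6), with 36 of 43 members matched, and gene structures from GENCODE release M21.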

Additional observations from a re-analysis of the deposited data

How the results depend on the processing

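No member was called under edgeR or DESeq2, TMM or RLE scaling, with or without the round term, without mitochondrial counts, in either round, or without any library. The exception was the fit with no filter on low counts, in which 1 member was called for RH VEH against WT VEH, 1 for RH MET against RH VEH and 2 for the difference of metformin effects; the cause was not tested. That fit held 27530 genes. It called 175 of them for RH VEH against WT VEH and 362 for RH MET against WT MET. For RH MET against RH VEH it called 229, and for WT MET against WT VEH 218. It called 431 for the difference, 119 for RH against WT and 63 for MET against VEH.

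Numbers of all genes called moved elsewhere too. DESeq2 called 3 for RH VEH against WT VEH, 22 for RH MET against WT MET, 1 for WT MET against WT VEH and 20 for RH against WT over both treatments. For RH MET against WT MET, 0 in place of 1 were called with no round term, with only the compared groups fitted, and in either round alone. Without WT MET 2 and RH VEH 2 there were 3 for RH VEH against WT VEH, 1 for RH MET against RH VEH, 1 for the difference and 3 for RH against WT. Round 1 alone gave 2 for RH VEH against WT VEH, 3 for RH MET against RH VEH, 3 for the difference, 2 for RH against WT and 2 for MET against VEH, and round 2 alone 0 for RH against WT. The median of members for WT MET against WT VEH was −0.11 in round 1 alone.

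Leaving out 1 library at a time gave 0 to 2 genes for RH VEH against WT VEH, 0 to 2 for RH MET against WT MET, 0 to 1 for RH MET against RH VEH, 0 to 1 for the difference and 1 to 2 for RH against WT. The medians of members then ran from 0.01 to 0.23, −0.22 to −0.07, −0.28 to −0.12, −0.35 to −0.11 and −0.05 to 0.08 in these comparisons, from −0.03 to 0.19 for WT MET against WT VEH and from −0.10 to 0.02 for MET against VEH. The median of the 3 immunoproteasome genes for RH MET against WT MET ran from −0.49 to −0.33.

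Column numbers do not pair libraries by the labels, and the deviations of same-numbered libraries correlated at −0.0143 to 0.489 over 18 pairs; 10 of 12 libraries correlated best with one of their own number. A fit with the replicate number as a block called 0 members and 2 genes for RH VEH against WT VEH. Under the block the median of members was −0.10, with 24 of 42 lower, for the difference of metformin effects and −0.05, with 26 lower and 16 higher, for RH MET against WT MET. Of the values of single members and ratios under all settings, 72 moved by more than their spread, 4 became calls, all of them with no filter, and 3421 did neither. Depth limits Psma8 most, with as few as 24 counts in a library.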

Other observations

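Other genes of the ubiquitin system and other cell markers gave values that belong to no statement above. Uba1, the main ubiquitin-activating enzyme gene, stood at 407, 256 and 367 CPM in WT MET and 480.3, 482 and 441 in WT VEH, a log2 fold change of −0.38 ± 0.171 (edgeR adjusted p = 0.876). Huwe1, a large ubiquitin ligase gene, stood at 273, 264 and 232 CPM in WT MET and 296, 517 and 356 in WT VEH, at −0.57 ± 0.217. In both genes every WT MET library was below every WT VEH library, as in 4.4% of all genes. Sqstm1, a ubiquitin-binding autophagy receptor gene, stood at 162, 132 and 157 CPM in RH VEH and 269, 195 and 195 in WT VEH, at −0.39 ± 0.168 (edgeR adjusted p = 0.977). Tap1, the peptide transporter gene that shares the upstream interval shown for Psmb9, was highest in the libraries rich in mitochondrial RNA, at 234 CPM in RH VEH 2 and 214 in WT MET 2, against 119 to 169.6 in the other 10 libraries. Megakaryocyte markers, summed over 6 genes, stood at 673 to 705 CPM in RH MET, 631 to 1434 in RH VEH, 685 to 1795 in WT MET and 500.4 to 668 in WT VEH. Stem and progenitor markers, summed over 8 genes, stood at 271 to 352 CPM in RH MET, 289 to 402 in RH VEH, 349.5 to 369.6 in WT MET and 247 to 441 in WT VEH.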
